A study of Mus musculus with 8 samples.

Results

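The genes described here are 10 immediate early genes of neuronal activity, *Fos*, *Fosb*, *Junb*, *Egr1*, *Egr2*, *Npas4*, *Arc*, *Nr4a1*, *Ier2* and *Dusp1*. They were chosen by name and matched by Ensembl identifier. All 10 were found among the 55890 genes of the count table, and all 10 were among the 18637 genes with enough counts to be tested. The question was how far their levels varied between pools of one genotype compared with the difference between genotypes, as a readout of neuronal activity when the tissue was collected.

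Poly(A) RNA of the hypothalamus was sequenced from female mice aged 16 weeks in 8 pools, 4 of POMC-C451Af/f mice and 4 of controls, and each pool held RNA of 2 animals. POMC-C451Af/f mice carry Cre under the POMC promoter together with the floxed mutant allele of *Esr1*, the gene of estrogen receptor alpha, that C451Af/f stands for, so the mutation is limited by design to cells in which that Cre is active. The paper describes the controls as C451Af/f littermates and the sample labels call them wildtype, and neither gives them Cre. The frozen tissue was collected after Ketador/Dexdomitor anaesthesia, a terminal bleed and cervical dislocation. The time from handling to freezing was not given in the sources used here. Total estimated counts ran from 36095253 to 40498166 in the POMC-C451Af/f pools and from 37841365 to 48942116 in the control pools. Pools are named by genotype and by the replicate number of their label, and that number gives no order.

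Immediate early genes are transcribed within minutes of synaptic activity or other stimuli, without new protein synthesis, because the transcription factors that switch them on are already present and are activated by calcium and kinase signalling. CREB, which binds the cyclic AMP response element (CRE), and serum response factor, which binds the CArG box, are the best known of these factors. Many of the genes encode transcription factors that act on later genes, and in the hypothalamus FOS in particular has long been used to map neurons activated by fasting, stress, osmotic challenge or handling. Their RNA is short-lived, so its level reflects the last part of an animal's life, and anaesthesia and handling belong to that period.

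The promoters are shown because these elements link the genes to activity. The 250 bases before a RefSeq start were taken from a table of RefSeq promoters, on build GRCm38.p6, for 7 of the 10 genes, and promoter sequence of *Egr1*, *Arc* and *Ier2* was not analysed here. The regions are chr12:85473640-85473889 on the + strand for *Fos*, chr7:19310046-19310295 on the - strand for *Fosb*, chr8:84978749-84978998 on the - strand for *Junb* and chr10:67537619-67537868 on the + strand for 1 of 5 *Egr2* entries, shown because it holds both elements. Those of the others are chr19:4989972-4990221 on the - strand for *Npas4*, chr15:101266596-101266845 on the + strand for *Nr4a1* and chr17:26508473-26508722 on the - strand for *Dusp1*. The RefSeq starts differ from the GENCODE gene ends given below for *Fosb* and *Junb*, and the windows shown for *Egr2*, *Npas4*, *Nr4a1* and *Dusp1* lie inside the GENCODE gene. Capitals mark the CRE core (TGACG, or CGTCA on the other strand) and, in *Egr2*, also the CArG box.
Fos: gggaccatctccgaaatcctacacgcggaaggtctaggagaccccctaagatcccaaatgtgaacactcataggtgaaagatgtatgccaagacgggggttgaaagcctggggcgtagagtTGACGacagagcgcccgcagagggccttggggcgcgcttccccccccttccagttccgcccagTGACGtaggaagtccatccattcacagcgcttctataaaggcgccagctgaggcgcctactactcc
Fosb: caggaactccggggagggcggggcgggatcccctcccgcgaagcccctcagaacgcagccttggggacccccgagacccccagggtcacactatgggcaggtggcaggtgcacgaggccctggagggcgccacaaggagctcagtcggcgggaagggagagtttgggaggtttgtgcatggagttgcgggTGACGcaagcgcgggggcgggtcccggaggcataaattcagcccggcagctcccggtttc
Junb: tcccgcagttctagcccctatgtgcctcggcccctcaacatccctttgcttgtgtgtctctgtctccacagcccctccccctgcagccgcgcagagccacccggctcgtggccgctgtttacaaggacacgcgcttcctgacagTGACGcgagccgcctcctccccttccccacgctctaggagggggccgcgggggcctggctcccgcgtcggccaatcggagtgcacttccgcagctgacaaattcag
Egr2: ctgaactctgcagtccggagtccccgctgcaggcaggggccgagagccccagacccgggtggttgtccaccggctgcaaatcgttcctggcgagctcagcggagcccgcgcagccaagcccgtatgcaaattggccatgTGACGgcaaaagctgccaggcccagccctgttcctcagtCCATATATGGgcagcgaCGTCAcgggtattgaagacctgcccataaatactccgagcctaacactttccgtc
Npas4: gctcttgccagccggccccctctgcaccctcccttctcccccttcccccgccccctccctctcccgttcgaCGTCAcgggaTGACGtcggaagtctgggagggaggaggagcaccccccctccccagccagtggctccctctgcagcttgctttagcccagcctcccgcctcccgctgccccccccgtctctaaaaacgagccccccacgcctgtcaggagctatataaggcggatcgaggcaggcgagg
Nr4a1: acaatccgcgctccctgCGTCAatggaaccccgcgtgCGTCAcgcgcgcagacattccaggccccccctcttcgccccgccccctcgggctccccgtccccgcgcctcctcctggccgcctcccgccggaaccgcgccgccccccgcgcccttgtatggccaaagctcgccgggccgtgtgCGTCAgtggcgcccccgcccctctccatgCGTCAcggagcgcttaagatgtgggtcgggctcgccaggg
Dusp1: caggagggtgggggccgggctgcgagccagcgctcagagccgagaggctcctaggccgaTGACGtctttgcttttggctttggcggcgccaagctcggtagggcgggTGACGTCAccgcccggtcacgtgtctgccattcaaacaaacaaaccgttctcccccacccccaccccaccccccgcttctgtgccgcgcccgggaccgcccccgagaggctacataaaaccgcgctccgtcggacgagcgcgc
A CRE core was found on one strand or the other in at least 1 promoter of all 7 genes, and of 19.8% of the 27025 genes of the table. Counted by promoter, it was in 9 of the 11 entries of these genes and in 17.8% of all 32851; of the 5 *Egr2* entries 3 held it. The whole CRE (TGACGTCA, a palindrome that contains the core on both strands) was found only in *Dusp1* among the 7, and in 1.77% of all genes. A CArG box was found only in *Egr2*, against 1.62% of all genes, and the TATA core TATAAA, searched on both strands and left in lower case, only in *Fos*, against 14.3%. Counted from the RefSeq start, the core begins 66 and 129 bases before *Fos*, 60 before *Fosb* and 106 before *Junb*. A match describes the letters of the window and is not a bound site. Elements further than 250 bases before a start were not searched. A gene without a CArG box in its window, *Fos* included, may therefore still have one.

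*Esr1*, the gene that carries the mutation, was read first. It measured 11.6, 12.2, 9.997 and 10.8 CPM (read counts put on one library size after TMM normalization) in POMC-C451Af/f replicates 1, 2, 3 and 4 and 12.3, 12.8, 11.6 and 15.97 CPM in control replicates 1, 2, 3 and 4. The groups overlapped, with a log2 fold change of POMC-C451Af/f over control of -0.23 (SE 0.104, edgeR unadjusted p = 0.0462, adjusted p = 0.878), which was -0.13 without control replicate 4. A gene count does not show a base change, so these values do not check the genotype labels. Beside the tissue label, 12 hypothalamic marker genes were read, all of which were tested and present in every pool. The most abundant of them, *Pmch*, the precursor of melanin-concentrating hormone, ran from 312 to 631 CPM. Their presence does not check the limits of the dissection, because thalamic marker genes were also present in every pool.

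None of the 10 immediate early genes was called different between the genotypes. The call required an adjusted p of 0.05 or less over all 18637 genes and an absolute log2 fold change over 0.5, and 0 of 10 met it with edgeR, against 0.0215% of all tested genes; DESeq2 also called 0. With edgeR, 0 of 10 had an unadjusted p under 0.05, against 5.1% of all tested genes (0 higher against 2.7% and 0 lower against 2.39%), and with DESeq2 1 did, *Fos*. The groups overlapped in all 10, so 0 were separated, against 2.78% of tested genes. The log2 fold change was above 0 in 7 and below 0 in 3, with a median of 0.08, where 50.4% of tested genes were above 0. With single pools left out the number above 0 ran from 6 to 9, and the median from 0.038 without control replicate 2 (0.040 without POMC-C451Af/f replicate 1, 0.048 without control replicate 3) to 0.14 without control replicate 4. The p-values measure the spread between pools of a pair of animals. Fewer active cells and less RNA per cell cannot be told apart in bulk samples. Without control replicate 4, 3 genes had an unadjusted p under 0.05: *Fos* at a log2 fold change of 0.43, *Nr4a1* at 0.22 and *Arc* at 0.15, with an adjusted p of 0.795 for each.

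**Figure D1:**
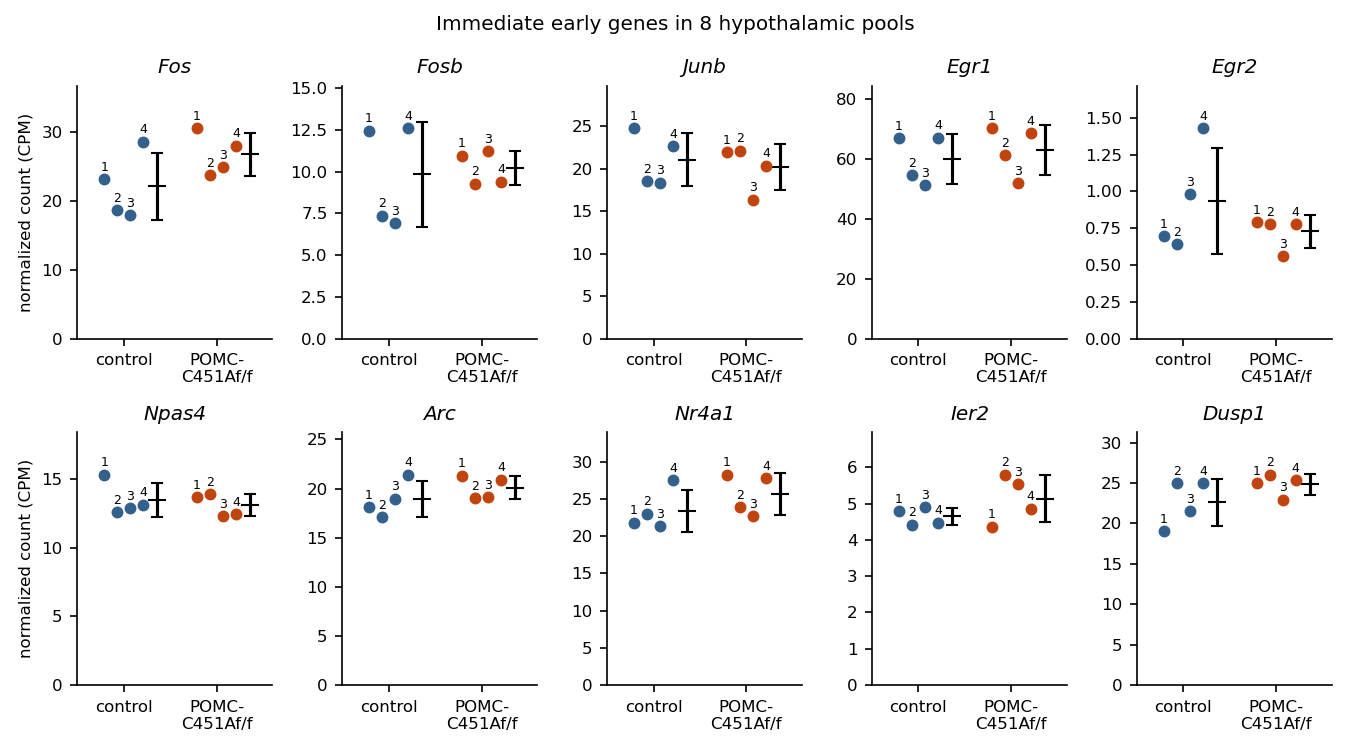
Normalized count (CPM) of the 10 immediate early genes in each pool, with the replicate number above each point, control in blue and POMC-C451Af/f in orange; the bar beside each group is its mean ± SD (n = 4 pools). The groups overlap for every gene. Control replicates 2 and 3 are the 2 lowest pools of Fos and Fosb, as they are of 2.76% of tested genes.

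*Fos*, *Fosb* and *Junb* encode subunits of the AP-1 transcription factor, in which a FOS protein pairs with a JUN protein. *Fos* (chromosome 12, 85473890 to 85477273, + strand, GRCm38) measured 30.6, 23.7, 24.9 and 28.0 CPM in POMC-C451Af/f replicates 1, 2, 3 and 4 and 23.1, 18.6, 17.96 and 28.6 CPM in control replicates 1, 2, 3 and 4. Control replicate 4 lay within the POMC-C451Af/f range, while the other 3 control pools lay below all POMC-C451Af/f pools. The mean was 26.8 ± 3.12 CPM (SD, n = 4) in POMC-C451Af/f and 22.1 ± 4.92 CPM in control pools. The log2 fold change was 0.28 (SE 0.138, 95% interval -0.02 to 0.59), with an edgeR adjusted p of 0.878. *Fos* was the only one of the 10 genes whose genotype difference exceeded its spread within genotypes, at 1.19 times the SD.

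*Fosb*, on chromosome 7 (19302696 to 19310051, - strand), measured 11.0, 9.27, 11.2 and 9.40 CPM in POMC-C451Af/f replicates 1, 2, 3 and 4 and 12.5, 7.36, 6.89 and 12.6 CPM in the control replicates in the same sequence. The control pools held both the highest and the lowest values, 1.83 times apart, with the POMC-C451Af/f pools between them. Its log2 fold change was 0.06 (SE 0.194, edgeR adjusted p = 0.973) and turned to -0.06 without control replicate 2 and to -0.08 without control replicate 3. *Junb*, on chromosome 8 (84974484 to 84978718, - strand), measured 21.9, 22.1, 16.4 and 20.4 CPM in the POMC-C451Af/f pools and 24.8, 18.5, 18.3 and 22.6 CPM in the control pools. Its highest pool was control replicate 1 and its lowest POMC-C451Af/f replicate 3. The log2 fold change of *Junb* was -0.06 (SE 0.116, edgeR adjusted p = 0.955) and turned to 0.03 without either of those pools.

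*Egr1* and *Egr2* encode zinc finger transcription factors that are induced with the AP-1 genes. *Egr1*, the most abundant of the 10, measured 70.2, 61.3, 51.9 and 68.5 CPM in the POMC-C451Af/f pools, in the order of replicates 1, 2, 3 and 4, and 66.8, 54.5, 51.1 and 67.0 CPM in the control pools. Each genotype had high and low pools, and the spread within each was larger than the difference between their means. The log2 fold change was 0.07 (SE 0.110, edgeR adjusted p = 0.937), and ran from 0.0047 without control replicate 3 to 0.16 without POMC-C451Af/f replicate 3. *Egr2* was the least abundant of the 10, at 0.790, 0.779, 0.562 and 0.779 CPM in the POMC-C451Af/f pools and 0.695, 0.642, 0.982 and 1.43 CPM in the control pools. Control replicate 4 was the highest pool and POMC-C451Af/f replicate 3 the lowest. The log2 fold change of *Egr2* was -0.36 with a wide interval (SE 0.271, 95% interval -0.96 to 0.24, edgeR adjusted p = 0.882), and it was -0.09 without control replicate 4.

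*Npas4* and *Arc* are the most neuron-specific of the group. *Npas4* encodes a transcription factor that responds to calcium entry, and measured 13.7, 13.9, 12.3 and 12.5 CPM in the POMC-C451Af/f pools and 15.3, 12.6, 12.9 and 13.1 CPM in the control pools. Control replicate 1 stood highest, and the other 7 pools lay between 12.3 and 13.9 CPM. *Npas4* had a log2 fold change of -0.04 (SE 0.0752, edgeR adjusted p = 0.945), which turned to 0.02 without control replicate 1. *Arc* encodes a synaptic protein that regulates AMPA receptors, and measured 21.3, 19.0, 19.1 and 20.9 CPM in the POMC-C451Af/f pools and 18.1, 17.1, 19.0 and 21.4 CPM in the control pools. Its highest pool and its lowest were both controls, replicates 4 and 2. *Arc* had a log2 fold change of 0.09 (SE 0.0711, edgeR adjusted p = 0.885), which was 0.044 without control replicate 2, 0.058 without POMC-C451Af/f replicate 1 and 0.15 without control replicate 4.

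*Nr4a1* encodes an orphan nuclear receptor, *Ier2* a nuclear protein, and *Dusp1* a phosphatase that switches off MAP kinases. *Nr4a1* measured 28.2, 23.9, 22.6 and 27.7 CPM in the POMC-C451Af/f pools and 21.8, 23.0, 21.3 and 27.5 CPM in the control pools, with the same 3 pools on top as in *Fos*. *Dusp1* measured 25.0, 26.03, 22.9 and 25.3 CPM in the POMC-C451Af/f pools and 19.0, 25.0, 21.5 and 25.0 CPM in the control pools, where control replicate 1 was the lowest. Control replicate 1 was thus the highest pool for *Junb* and *Npas4* and the lowest for *Dusp1*. *Ier2* measured 4.37, 5.80, 5.53 and 4.87 CPM in the POMC-C451Af/f pools and 4.79, 4.42, 4.91 and 4.48 CPM in the control pools, so that the POMC-C451Af/f pools held both its highest and its lowest value. The log2 fold changes were 0.13 (SE 0.0926) for *Nr4a1*, 0.14 (SE 0.107) for *Ier2* and 0.13 (SE 0.0833) for *Dusp1*, each with an edgeR adjusted p of 0.878. Single pools moved them: *Nr4a1* to 0.081 without POMC-C451Af/f replicate 1 and 0.22 without control replicate 4, *Ier2* to 0.078 without POMC-C451Af/f replicate 2, and *Dusp1* to 0.059 without control replicate 1.

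**Figure D2:**
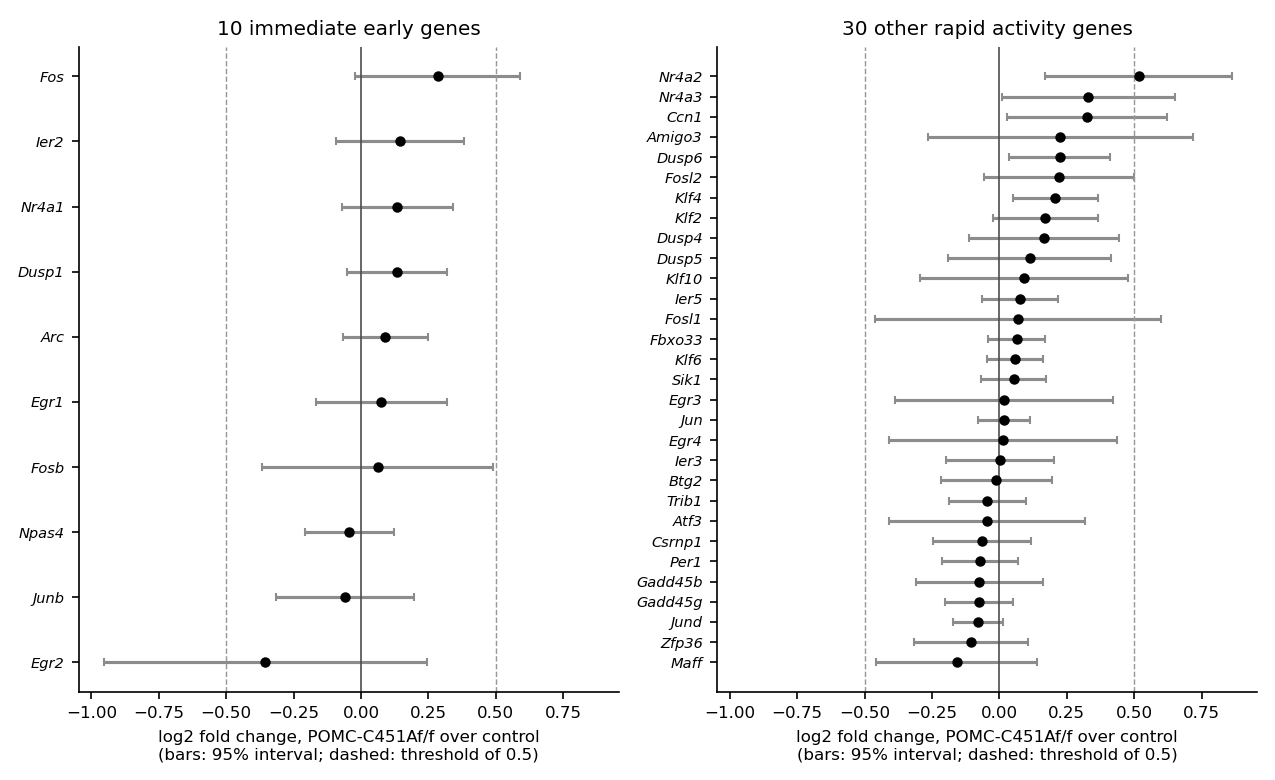
Log2 fold change of POMC-C451Af/f over control with its 95% interval for the 10 immediate early genes (left) and 30 other genes of the rapid activity response (right); dashed lines mark the threshold of 0.5. The intervals of all 10 immediate early genes contain 0, and those of 5 of the other 30 lie above it.

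Set against the spread between pools, the genotype difference was the smaller quantity for 9 of the 10 genes. The spread was taken as the pooled within-genotype SD of log2(CPM + 0.5), and the difference as that of the group means on the same scale. Across all tested genes 77.4% had a difference below their SD, so a count of 9 of 10 is near the background. Without control replicate 4 the number was 6.

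The spread itself was wider than that of most tested genes. The median SD of the group was 0.179, where the median of all tested genes was 0.101, and all 10 lay above that median. *Fosb* (SD 0.332), *Egr2* (0.263) and *Fos* (0.244) had a larger SD than 96.6%, 92.6% and 90.4% of tested genes, *Junb* (0.204), *Egr1* (0.198), *Nr4a1* (0.159) and *Dusp1* (0.142) followed, and *Ier2* (0.128), *Arc* (0.112) and *Npas4* (0.106) were closest to the median of all genes. Counting error alone gives an SD of 0.0292 for *Egr1*, whose spread was 6.80 times that, while the spread of *Ier2* was 1.36 times and that of *Egr2* 1.68 times its counting error. The median ratio was 3.28 for the 10 genes and 1.65 for all tested genes. Spread depends on level, as the plot of spread against mean count shows, and the 10 genes were not compared with genes of equal level.

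**Figure D3:**
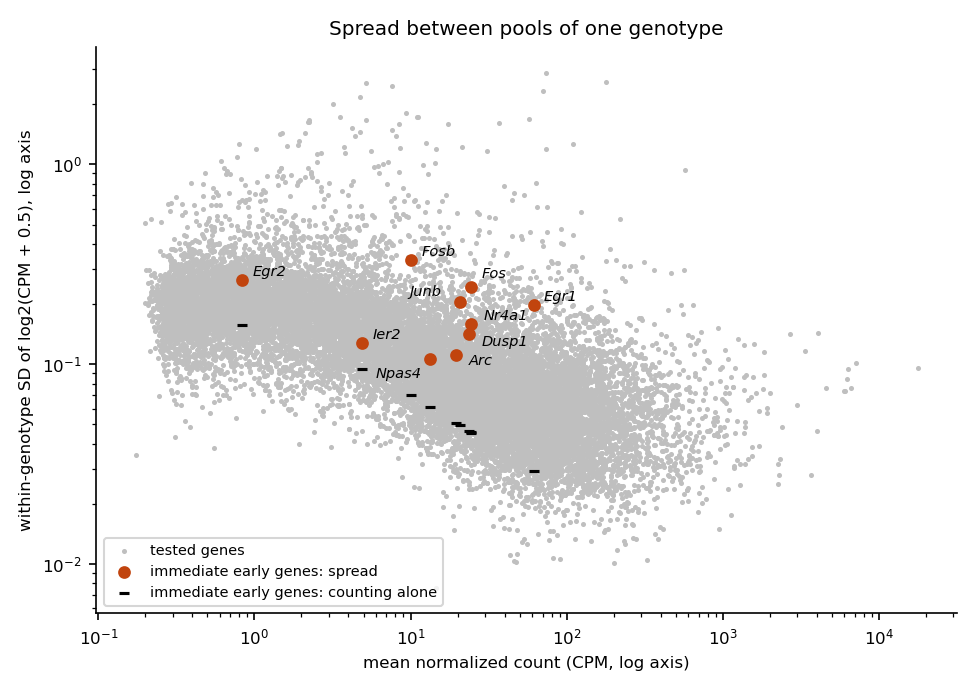
Pooled within-genotype SD of log2(CPM + 0.5) against mean normalized count (both axes logarithmic) for all 18637 tested genes (grey) and the 10 immediate early genes (orange), with the SD that counting alone would give marked by black dashes. Fosb has the largest spread of the 10 genes, and the spread of Ier2 and Egr2 is closest to their counting error.

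For most of these genes the control pools varied more. In 9 of the 10 genes the SD of log2(CPM + 0.5) was larger among control pools than among POMC-C451Af/f pools, which held for 42.9% of all tested genes. The contrast was widest for *Fosb*, with an SD of 0.448 among control and 0.138 among POMC-C451Af/f pools. *Fos* had 0.304 and 0.164. For *Egr1* the SDs were nearly equal, 0.199 and 0.197, and *Ier2* was the exception, with 0.0661 among control and 0.168 among POMC-C451Af/f pools. Whether the spread differs between the genotypes was not tested.

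The same pools tended to be high or low across genes. The summed CPM of the 10 genes was 227, 206, 187 and 218 in POMC-C451Af/f replicates 1, 2, 3 and 4 and 207, 182, 175 and 224 in control replicates 1, 2, 3 and 4. Control replicate 4 was among the 3 highest pools in 8 of the genes and POMC-C451Af/f replicate 1 in 6. Control replicate 2 was among the 3 lowest pools in 8 genes and among the 3 highest in 0. Control replicate 3 was among the 3 lowest in 7, and POMC-C451Af/f replicate 3 in 6. These counts per pool were not compared with those of all tested genes. *Fos*, *Egr1*, *Arc* and *Nr4a1* shared the same 3 highest pools, POMC-C451Af/f replicates 1 and 4 and control replicate 4, as did 2.67% of tested genes, a set picked out after the values were seen. *Ier2* departed from this order, being lowest in POMC-C451Af/f replicate 1 and highest in POMC-C451Af/f replicate 2.

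**Figure D4:**
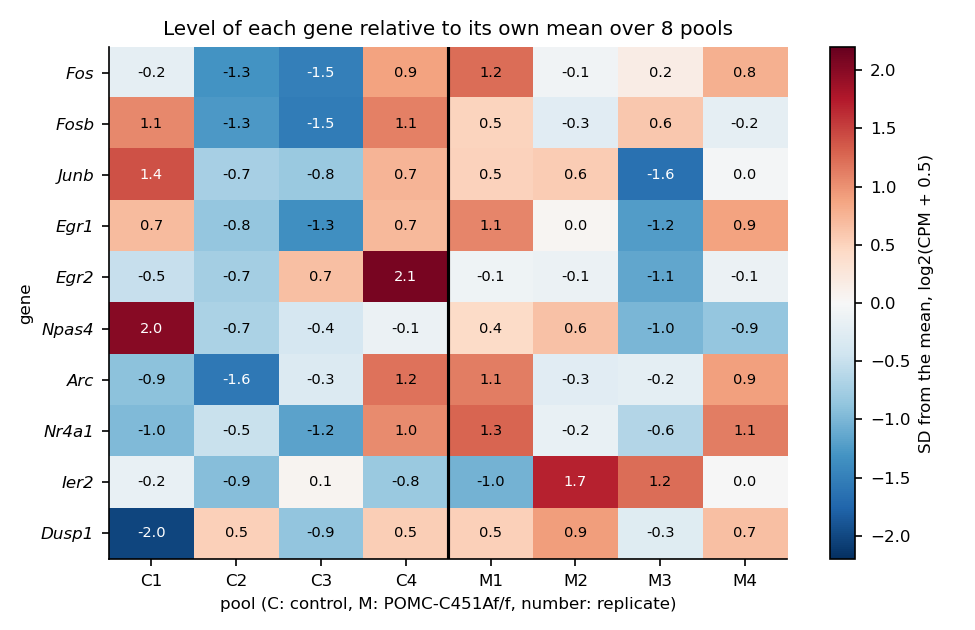
Level of each gene in each pool as SDs from its own mean over the 8 pools, on the log2(CPM + 0.5) scale (red above, blue below the mean; C, control; M, POMC-C451Af/f; the number is the replicate). Columns C2 and C3 are mostly blue and C4 and M1 mostly red, with both colours on each side of the line between the genotypes.

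Levels of different genes were compared per kilobase of exon. In this order *Egr1* stood first at 13.7 ± 1.75 CPM per kilobase (SD over 8 pools), followed by *Fos* (10.4 ± 1.94), *Junb* (8.97 ± 1.196), *Dusp1* (7.17 ± 0.724), *Nr4a1* (6.98 ± 0.813) and *Arc* (6.38 ± 0.513). *Ier2* (3.22 ± 0.344) and *Npas4* (3.21 ± 0.241) were level with each other, *Fosb* stood at 1.61 ± 0.347 and *Egr2* at 0.245 ± 0.0799. The ranges over pools were separate between *Arc* and *Ier2*, between *Npas4* and *Fosb* and between *Fosb* and *Egr2*, and overlapped between all other neighbours. *Fos* was above *Junb* in only 5 of 8 pools and *Dusp1* above *Nr4a1* in 4.

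The genes whose pattern over the 8 pools was most like the mean of the scaled 10 were, outside all lists, *Gm9531* (Pearson r = 0.969), *Fem1b* (0.967), *Prdm15* (0.966), *Gm37829* (0.948), *Ing1* (0.942), *Dedd2* (0.942), *Zdhhc23* (0.931) and *Rbm4b* (0.930). *Fem1b* ran from 159 CPM in control replicates 2 and 3 to 171 CPM in control replicate 4, a range of 1.08 times, which is narrow beside the 1.70 times of *Fos*. These correlations describe the 8 pools, and 23 tested genes, or 0.123%, had an r above 0.9. That count was taken over all 18637 tested genes, including the 10 that form the mean. The named genes were picked as the highest of so many, and with 8 pools such an r can arise by chance. Whether they are linked to the 10 genes was not tested.

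Counts of called genes and of unadjusted p-values in the lists below are from edgeR; DESeq2 and the other 16 alternative fits also called 0 genes of any list. Beyond the 10 genes, 30 further genes of the rapid activity response were measured, and 0 were called, with 5 at an unadjusted p under 0.05 (5 also with DESeq2), all higher in POMC-C451Af/f. With single pools left out the number in either direction ran from 2, without POMC-C451Af/f replicate 4 or control replicate 1, to 9 (8 higher, 1 lower), without control replicate 4. *Nr4a2*, an orphan receptor gene related to *Nr4a1*, measured 21.4, 15.6, 29.1 and 20.9 CPM in the POMC-C451Af/f pools and 14.3, 13.5, 15.5 and 17.4 CPM in the control pools, and was highest in POMC-C451Af/f replicate 3, a pool low in the 10 genes. Its log2 fold change was 0.52 (SE 0.157, edgeR adjusted p = 0.878), which was 0.35 without POMC-C451Af/f replicate 3 and 0.29 without that pool and control replicate 2, and *Nr4a2* also marks dopaminergic neurons of the midbrain. The others were *Ccn1* (0.33, SE 0.134), *Dusp6*, a further MAP kinase phosphatase (0.22, SE 0.0848), *Klf4* (0.21, SE 0.0711) and *Nr4a3* (0.33, SE 0.146), the last named after its values were seen. The median log2 fold change of the 30 was 0.05, and *Jund*, the most abundant, had -0.08.

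The AP-1 gene *Fosl2* followed the 10 genes most closely in this list, with r = 0.909 with their mean over 8 pools. It measured 30.6, 25.0, 24.7 and 26.4 CPM in the POMC-C451Af/f pools and 25.98, 19.1, 19.0 and 27.8 CPM in the control pools, again lowest in control replicates 2 and 3. *Sik1* (r = 0.881) and *Btg2* (0.879) came next, while *Jund* ran the other way (-0.745). *Fosl2*, *Sik1* and *Btg2* were named after their values were seen.

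Later and upstream genes of the activity response were read in the same way. Of 16 genes induced with delay, 0 were called and 1 had an unadjusted p under 0.05, the receptor gene *Gpr3* (log2 fold change 0.27, SE 0.115), and the most abundant, *Scg2*, had -0.06. With single pools left out the number with an unadjusted p under 0.05 ran from 0, without POMC-C451Af/f replicate 1 or 3 or control replicate 3, to 4, without POMC-C451Af/f replicate 2. Of 24 genes that carry the activity signal to the nucleus, 0 were called and 1 had an unadjusted p under 0.05, the CREB coactivator gene *Crtc2*, at 34.2, 35.2, 34.3 and 34.0 CPM in the POMC-C451Af/f pools and 38.7, 38.0, 36.6 and 35.6 CPM in the control pools. The groups did not overlap in *Crtc2*, whose log2 fold change was -0.11 (SE 0.0365, edgeR adjusted p = 0.878). *Camk2b*, the most abundant of that list, had 0.01. The number of that list with an unadjusted p under 0.05 was 3 without POMC-C451Af/f replicate 2, 2 without POMC-C451Af/f replicate 1, 1 without any other single pool and 0 without both POMC-C451Af/f replicate 3 and control replicate 2.

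Genes that respond to handling and stress were read beside them. Of 9 heat shock genes 0 were called and 0 had an unadjusted p under 0.05 (1, lower, without POMC-C451Af/f replicate 1). The most abundant, *Hspa8*, had a log2 fold change of 0.02. *Hspa1a* and *Hspa1b* are near-identical copies whose counts may be shared. Of 12 glucocorticoid-responsive genes 0 were called and 0 had an unadjusted p under 0.05 (2 with DESeq2, and 7 with edgeR without POMC-C451Af/f replicate 2, all lower), yet 11 of 12 had a log2 fold change below 0, with a median of -0.17. Their summed CPM was 742, 891, 824 and 587 in POMC-C451Af/f replicates 1, 2, 3 and 4 and 814, 857, 888 and 875 in the control replicates, with the lowest values in POMC-C451Af/f replicates 4 and 1. *Tsc22d3*, the most abundant, followed the same order of genotypes at -0.20. Its POMC-C451Af/f pools measured 130, 148, 147 and 101 CPM in replicates 1, 2, 3 and 4, and its control pools 139 to 161 CPM. The differences in this list rest in part on POMC-C451Af/f replicate 4, and the log2 fold changes without it are not given here. *Per1* belongs to this list and to the rapid genes. The 2 pools lowest in the glucocorticoid sum, POMC-C451Af/f replicates 4 and 1, were among the 3 highest in the summed immediate early genes. The remaining pool of those 3, control replicate 4, went the other way, at rank 3 from the highest in the glucocorticoid sum. The part of the glucocorticoid-responsive genes in the result was not tested.

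**Figure D5:**
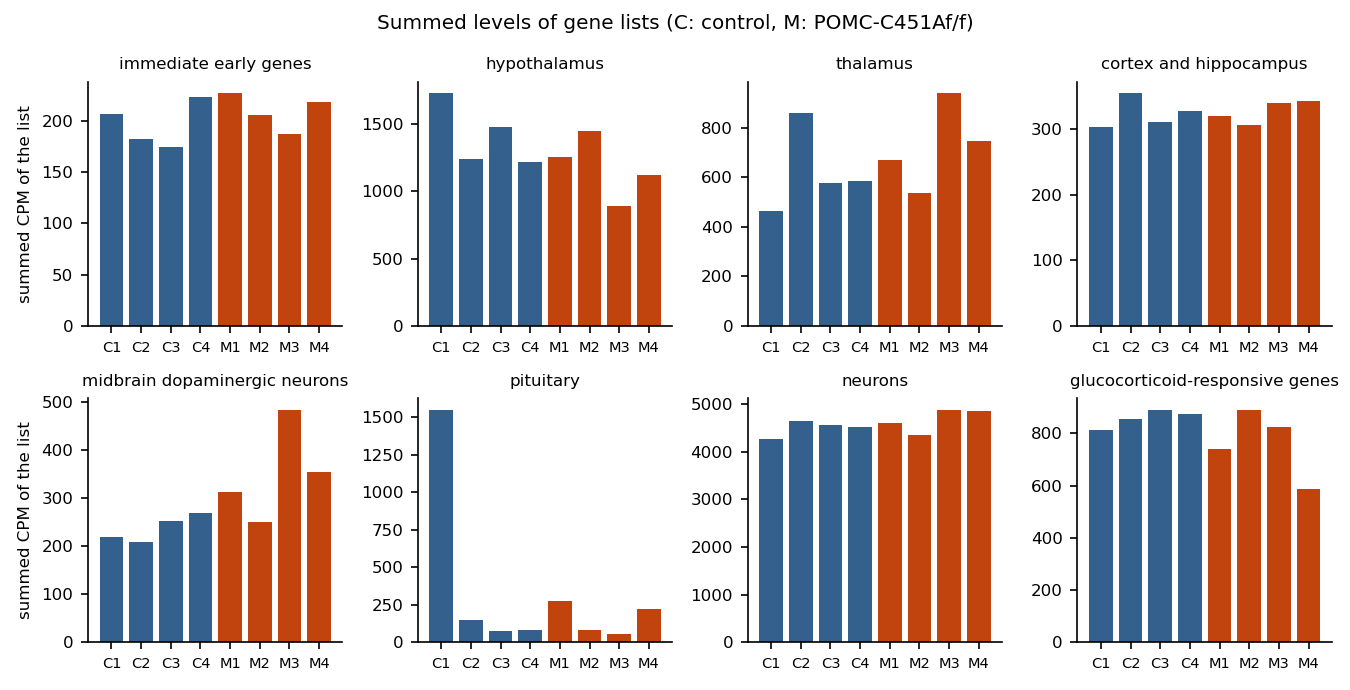
Summed CPM of 8 gene lists in each pool (C, control; M, POMC-C451Af/f; the number is the replicate; bars start at 0). The thalamus list is highest in M3 and C2, the pituitary list in C1, the midbrain list in M3, and the glucocorticoid list is lowest in M4.

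The pools also differed in the levels of marker genes of neighbouring regions. Summed over 10 thalamic marker genes, all tested and present in every pool, the CPM was 671, 534, 939 and 746 in POMC-C451Af/f replicates 1, 2, 3 and 4 and 465, 860, 575 and 585 in control replicates 1, 2, 3 and 4. Of the 10, all had a log2 fold change above 0 and 1 an unadjusted p under 0.05, *Slc17a6*, also the most abundant (0.14, SE 0.0653). *Slc17a6* had 0.081 without POMC-C451Af/f replicate 3. The number of the list with an unadjusted p under 0.05 was 0 without POMC-C451Af/f replicate 1, 3 or 4 or control replicate 1 or 4 and with the robust fit, 3 without POMC-C451Af/f replicate 2 and 8 without control replicate 2. *Prkcd*, which is dense in thalamic neurons, ran from 16.5 CPM in control replicate 1 to 169 CPM in control replicate 2. In the POMC-C451Af/f pools it ran from 30.3 CPM in replicate 2 to 147 CPM in replicate 3. Apart from *Slc17a6*, directions in this list without single pools are not given here. Without POMC-C451Af/f replicate 3 and control replicate 2, the pool of each genotype highest in thalamic genes, the log2 fold change of *Fos* was 0.24 and that of *Fosb* -0.11.

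Of 8 genes listed as markers of midbrain dopaminergic neurons, all were tested and had a log2 fold change above 0. Of the 8, 7 had an unadjusted p under 0.05 in edgeR and in DESeq2, with 0 called by either. Their summed CPM was 313, 251, 484 and 354 in POMC-C451Af/f replicates 1, 2, 3 and 4 and 220, 209, 253 and 270 in control replicates 1, 2, 3 and 4, and the most abundant gene was *Aldh1a1* (0.48, SE 0.151). *Th*, the rate-limiting enzyme of dopamine synthesis, had 0.55 (SE 0.135, adjusted p = 0.878 in edgeR and 0.443 in DESeq2), *Slc6a3*, the dopamine transporter, 1.86 (SE 0.601), and *En1* 1.99 (SE 0.639). The number with an unadjusted p under 0.05 was 4 without POMC-C451Af/f replicate 3, without control replicate 2 and with the robust fit, 3 with the thalamus list mean as a covariate and 2 without both of those pools. Without POMC-C451Af/f replicate 3 *Aldh1a1* had 0.29, and without both pools *Th* had 0.34, *Slc6a3* 1.06 and *En1* 1.12. The genes of this list are not equal as midbrain markers. In control replicate 1 *En1* measured 0.323 and *Slc6a3* 6.90 CPM, but *Th* 47.0 and *Aldh1a1* 66.8 CPM. The sum is thus not a measure of midbrain cells alone. Whether cells of the midbrain or of the hypothalamus itself gave these counts was not tested. *Nr4a2*, the rapid gene with the lowest unadjusted p, was highest in the pool highest in the sum of this list.

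The 12 hypothalamic marker genes all had a log2 fold change below 0, with a median of -0.22, and 2 had an unadjusted p under 0.05 (1 with DESeq2, and from 1 without POMC-C451Af/f replicate 3 or control replicate 1 to 7 without POMC-C451Af/f replicate 2). These were *Trh*, whose groups did not overlap (-0.23, SE 0.0671), and *Pomc* (-0.59, SE 0.237). Summed over the 12 genes, the CPM was 1256, 1445, 891 and 1118 in POMC-C451Af/f replicates 1, 2, 3 and 4. In control replicates 1, 2, 3 and 4 it was 1729, 1242, 1475 and 1215. The sum was thus highest in control replicate 1 and lowest in POMC-C451Af/f replicate 3. Apart from *Pomc* below, log2 fold changes of this list without single pools are not given here. Pituitary genes, of which 6 of 8 were tested, reached 1549 CPM in control replicate 1 and lay between 53.7 and 274 CPM in the other pools. *Prl*, the most abundant of them, stood at 1013 CPM in that pool, the one that was highest for *Junb* and *Npas4* and lowest for *Dusp1*. *Pomc*, also a pituitary gene, measured 98.9 CPM there and 30.6 to 50.8 CPM elsewhere. Without control replicate 1 its log2 fold change was -0.28.

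Among the other lists, 0 genes were called, and the numbers with an unadjusted p under 0.05 are given. The cortex and hippocampus list had 8 of 10 genes tested, with *Rasgrf2* the most abundant, 0 at an unadjusted p under 0.05 and a summed CPM of 303 to 355. The striatum list had 1 of 10 (3 with DESeq2 or with no filter, 0 without both POMC-C451Af/f replicate 3 and control replicate 2), *Pde10a* (0.24, SE 0.0914), also its most abundant gene, with sums of 182 to 213, and the choroid plexus list 0 of 6 tested, led by *Clic6*, with sums of 32.0 to 39.7. Neuronal markers had 0 of 8, led by *Snap25*, and their sum ran from 4272 to 4885 CPM. Oligodendrocyte markers had 3 of 8, all higher in POMC-C451Af/f, *Mog* and *Mag* among them, led by *Mbp*, and their sum ran from 4861 CPM in control replicate 1 to 6985 CPM in POMC-C451Af/f replicate 3. Their number ran from 1, without POMC-C451Af/f replicate 3 or 4 or control replicate 1, to 7, without POMC-C451Af/f replicate 2. Astrocyte markers had 2 higher, *Aqp4* (0.29, SE 0.0496, adjusted p = 0.198 in edgeR and 0.00019 in DESeq2, below the fold threshold in both) and the most abundant *Slc1a2*, and 1 lower, *Aldh1l1*, and their number ran from 2 to 5, the latter without POMC-C451Af/f replicate 1 or 2. Microglial markers had 2 of 8, *Cx3cr1* and *P2ry12*, endothelial and mural markers 0 of 8, led by *Rgs5*, and reference genes 0 of 6, led by *Gapdh*. Blood genes had 2 of 6 tested, *Hbb-bs*, the most abundant, and *Hba-a1*, with sums from 142 to 547 CPM, and their number ran from 0, without POMC-C451Af/f replicate 3 or control replicate 3 or 4, to 5, without POMC-C451Af/f replicate 4. The remaining lists of this paragraph had at most 2 with any single pool left out. The part of these regions and cell types in the levels of the immediate early genes was not tested.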

How the data were processed

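The authors sequenced stranded poly(A) libraries as paired reads, checked them with FastQC 0.12.1, quantified transcripts with Salmon 1.10 against GENCODE (build GRCm39 in the submitters' processing notes) and deposited estimated counts per gene, not normalized between pools. A second deposited table holds the authors' DESeq2 1.40 comparison of the genotypes (log2 fold changes, errors, scores and p-values) and was not used here.

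Here the estimated counts of the 8 pools were rounded to whole numbers, filtered by edgeR's filterByExpr (at least 10 counts, 15 in total) and normalized with TMM factors of 0.984 to 1.02. They were tested with edgeR 4.0.16 (quasi-likelihood F test, genotype only) in R 4.3.3, with Benjamini-Hochberg adjustment over the 18637 genes tested. The procedure was tested on simulated data. The SE is the absolute log2 fold change over the square root of F, and the 95% interval uses the t distribution with the degrees of freedom of the fit. CPM are on TMM-scaled library sizes, and the counting SD is the Poisson error on the log2(CPM + 0.5) scale. Lengths and positions are from GENCODE M21 on GRCm38, in which 51424 of 55890 identifiers were found; positions were not converted to GRCm39. Transcript lengths per pool were not used here, so a change in isoform use could move a count. No pools of one genotype were alike within sampling noise (lowest chi-square per degree of freedom 6.46).

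The text names the 10 members, *Esr1*, from each of the other lists up to 4 genes with an unadjusted p under 0.05, lowest first, and the most abundant gene, and the 8 tested genes outside the lists most correlated with the mean of the scaled members; *Nr4a3*, *Fosl2*, *Sik1*, *Btg2*, *Prkcd* and *Hspa1a* and *Hspa1b* were added outside this rule, and some genes that the rule names are not reported here. The members and all other lists (20 lists and 218 genes with the members) were chosen with earlier results of these data known. Alternatives were DESeq2 1.42.0, other size factors, other filters, robust fits, other pseudocounts, the replicate number as a block, FDR alone, each pool left out and, chosen after seeing the data, 2 settings on thalamic marker genes.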

Additional observations from a re-analysis of the deposited data

Results flagged for a closer look

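The screen took each immediate early gene, *Esr1* and each list sum except that of the immediate early genes, per genotype. Among these 60 sets of 4 pools, 6 had a pool that stood far from the other 3, where chance gives about 1 in 20, or 3. One was an immediate early gene, *Egr2*, at 0.562 CPM in POMC-C451Af/f replicate 3 and 0.779 to 0.790 CPM in the other POMC-C451Af/f pools. Its SD among the POMC-C451Af/f pools, 0.137 on the log2(CPM + 0.5) scale, was below its counting error of 0.157. The summed heat shock genes were at 4848.9 CPM in POMC-C451Af/f replicate 1 and 4588.3 to 4627.7 CPM in the others. Control replicate 1 stood apart 3 times, in the summed pituitary genes (1548.7 CPM, others 73.1 to 146.6), the choroid plexus genes (39.7 CPM, others 32.0 to 32.8) and the oligodendrocyte genes (4861.2 CPM, others 5738.2 to 5802.0). The summed reference genes were at 3015.3 CPM in control replicate 4 and 3211.8 to 3239.6 CPM in the others.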

How the results depend on the processing

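Called genes numbered 4 (*Efr3b*, *Myo7a*, *Mrpl48-ps* and *Gm44675*, none an immediate early gene, named after their values were seen), 13 with DESeq2, 2 with at least 10 counts in every pool, 2 with the replicate number as a block, and 4 to 5 with a pool left out. The replicate numbers do not pair the pools (correlations of same-numbered pools 0.14, -0.18, -0.11 and 0.24), and not every pool correlated best with its own number. Members called were 0 in all 17 alternative fits. The number with an unadjusted p under 0.05 was 0, and became 1 with DESeq2, with no filter, with the replicate block and with the thalamus list mean as a covariate (*Fos* each time, log2 fold change 0.28, 0.28, 0.30 and 0.33), and 1 without the pool of each genotype highest in thalamic genes (*Dusp1*, 0.22), these last 2 settings chosen after seeing the data. It ranged from 0 to 3 with a pool left out, 3 without control replicate 4 and 1 without POMC-C451Af/f replicate 2 (*Fos*, 0.34). The lowest adjusted p of *Fos* was 0.526. *Aqp4* had an adjusted p of 0.00019 with DESeq2 and 0.068 to 0.748 in the other alternatives, at log2 fold changes of 0.22 to 0.31. Directions turned for *Fosb* (-0.055 and -0.079 without control replicates 2 and 3, range -0.079 to 0.20, and -0.11 without the thalamus-high pools), *Junb* (0.029 without POMC-C451Af/f replicate 3 and 0.028 without control replicate 1, range -0.12 to 0.029, and 0.051 with the thalamic covariate) and *Npas4* (0.022 without control replicate 1, range -0.076 to 0.022, and 0.022 with the thalamic covariate); the cause was not tested. *Fos* ranged from 0.19 to 0.43 with a pool left out. The median SD of the 10 genes was 0.152 to 0.190 with a pool left out and 0.142 to 0.181 otherwise. With 20 to 54 counts in each pool, *Egr2* had the largest counting error of the 10.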
